A study of Mus musculus with 6 samples.

Results

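The genes of the polycomb, SWI/SNF and corepressor complexes were followed in mouse MLL-AF9 leukaemia cells with an Evi1 transgene (Evi1 Tg, 3 arrays) and in MLL-AF9 leukaemia cells of wild-type origin (WT, 3 arrays). The members were 47 chromatin regulators chosen by name, of which 46 were measured among 22180 genes, each through the probe set with the highest mean intensity. The expression of Suv39h1 is not analysed here. Both groups were of the C57BL/6J background, carried the leukaemia fusion MLL-AF9, were untreated, and were read as total RNA of 10000 sorted green fluorescent cells per sample. The Mecom gene encodes Evi1, a DNA-binding protein with zinc fingers that is active in blood stem cells and in some leukaemias. The sources used here give neither the promoter and species of the transgene nor the age of the mice, and do not say if replicates are different animals. The p-values therefore reflect the spread among these samples, which may be technical. The design has a single comparison, Evi1 Tg against WT.

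Polycomb repressive complex 2 (PRC2) methylates lysine 27 of histone H3, and polycomb repressive complex 1 (PRC1) ubiquitinates histone H2A and compacts chromatin. SWI/SNF complexes slide or eject nucleosomes and oppose polycomb at many genes, while NuRD, CoREST and CtBP complexes bring deacetylases and demethylases to repressed genes. MLL-AF9 leukaemia cells are known to depend on PRC2, on the SWI/SNF ATPase Smarca4 and on the demethylase Kdm1a. EVI1 has been reported to bind CtBP, histone deacetylases, the methyltransferases Suv39h1 and Ehmt2, Smarca4 and Crebbp, and to contact polycomb proteins.

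Median intensity per array lay between 51.6 and 55.4, and Pearson correlations across genes, which are not independent replicates, were 0.978 to 0.992 within groups and 0.972 to 0.985 across groups. Myeloid markers were above background for 13 of 13 genes, where background is the 90th percentile of genes silent in blood, an intensity of 82.9. T and NK cell markers were above it for 0 of 11 measured genes and B cell markers for 0 of 8. Their summed intensities were 478 to 497 (T and NK) and 350 to 364 (B) in Evi1 Tg, against 468 to 547 and 363 to 428 in WT. Mast cell, basophil and eosinophil markers were above background for 1 of 9 genes, with sums of 431 to 465 in Evi1 Tg and 405 to 1163 in WT. Macrophage markers were above it for 4 of 10 genes, with sums of 4499 to 5251 in Evi1 Tg and 3615 to 5314 in WT. For megakaryocyte markers it was 3 of 5 measured genes, with sums of 325 to 425 in Evi1 Tg and 317 to 690 in WT. For stroma and endothelium it was 2 of 10, and for erythroid markers 1 of 5 measured genes. Mecom itself did not separate the groups. Its brighter probe set read 40.7, 37.7 and 37.5 in Evi1 Tg 1, 2 and 3, against 39.4, 37.4 and 34.1 in WT 1, 2 and 3 (log2 difference 0.06, exact two-sided permutation p = 0.4), below background on every array. The groups are therefore known from the labels alone.

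Chromatin regulators differed little between Evi1 Tg and WT cells, and more of them lay slightly above WT than below it. No member passed the test across all genes (limma, Benjamini-Hochberg adjusted p under 0.05, 0 of 46 members, smallest adjusted p = 0.267), where 25 of 22180 genes (0.113%) and 0.235% of genes above background passed. The log2 difference of Evi1 Tg minus WT was above 0 for 36 of 46 members (78.3%), against 53.5% of all genes and 50.5% of the 9350 genes above background. The median difference was 0.14 on the log2 scale, against 0.01 over all genes. At an unadjusted p under 0.05 7 members stood out (15.2%), against 10.3% of all genes and 18.2% of genes above background. Of these, 6 were higher (4.5% of all genes, 7.83% of those above background) and 1 was lower (5.8% and 10.4%). The groups did not overlap for 9 of 46 members (19.6%), against 14.6% of all genes and 19.6% of genes above background. They were 7 higher members (7.08% of all genes, 8.36% of those above background) and 2 lower ones (7.47% and 11.2%). Without regard to direction these shares lie near those of genes above background, whereas by direction more members were higher and fewer were lower. Without WT 3 the median difference was 0.22. At an unadjusted p under 0.05 there were then 16 members (34.8%), against 16.5% of all genes and 31.9% of genes above background in the same fit. Without Evi1 Tg 2 there were 4 (8.70%), against 6.54% and 11.1%. By complex, the median difference was 0.21 in the polycomb deubiquitinase PR-DUB (3 of 3 members above 0), 0.20 in the H3K27 demethylase and acetyltransferases (4 of 4), 0.16 in SWI/SNF (8 of 11), and 0.15 in NuRD and class I deacetylases (6 of 7). It was 0.14 in PRC1 (6 of 8) and in the CtBP and CoREST corepressors (3 of 4), 0.10 in PRC2 (3 of 5) and 0.03 in the H3K9 and H3K36 methyltransferases (3 of 4). Single arrays of either group moved several of these medians by over 1.5 times. Without WT 1 the median was -0.01 in PRC2, 0.05 in NuRD and class I deacetylases, 0.08 in PRC1 and 0.09 in CtBP and CoREST. It was then 0.10 in SWI/SNF and in the H3K9 and H3K36 methyltransferases. Without WT 2 it was 0.00 in PRC2, 0.10 in SWI/SNF and 0.00 in the H3K9 and H3K36 methyltransferases. Without WT 3 it was 0.30 in PRC2 and 0.26 in NuRD and class I deacetylases and in CtBP and CoREST. It was then 0.05 in the H3K9 and H3K36 methyltransferases and -0.01 in the H3K27 demethylase and acetyltransferases. Without Evi1 Tg 1 it was 0.01 in the H3K9 and H3K36 methyltransferases. Without Evi1 Tg 2 it was 0.03 in PRC2 and 0.05 in the H3K9 and H3K36 methyltransferases. The differences of single members ran from -0.57 (Smarca2) to 0.58 (Ezh2), and 4 of 46 were larger than 1.3-fold. No share of all genes beyond 1.3-fold is given, so this count is not a result about the members.

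**Figure D1:**
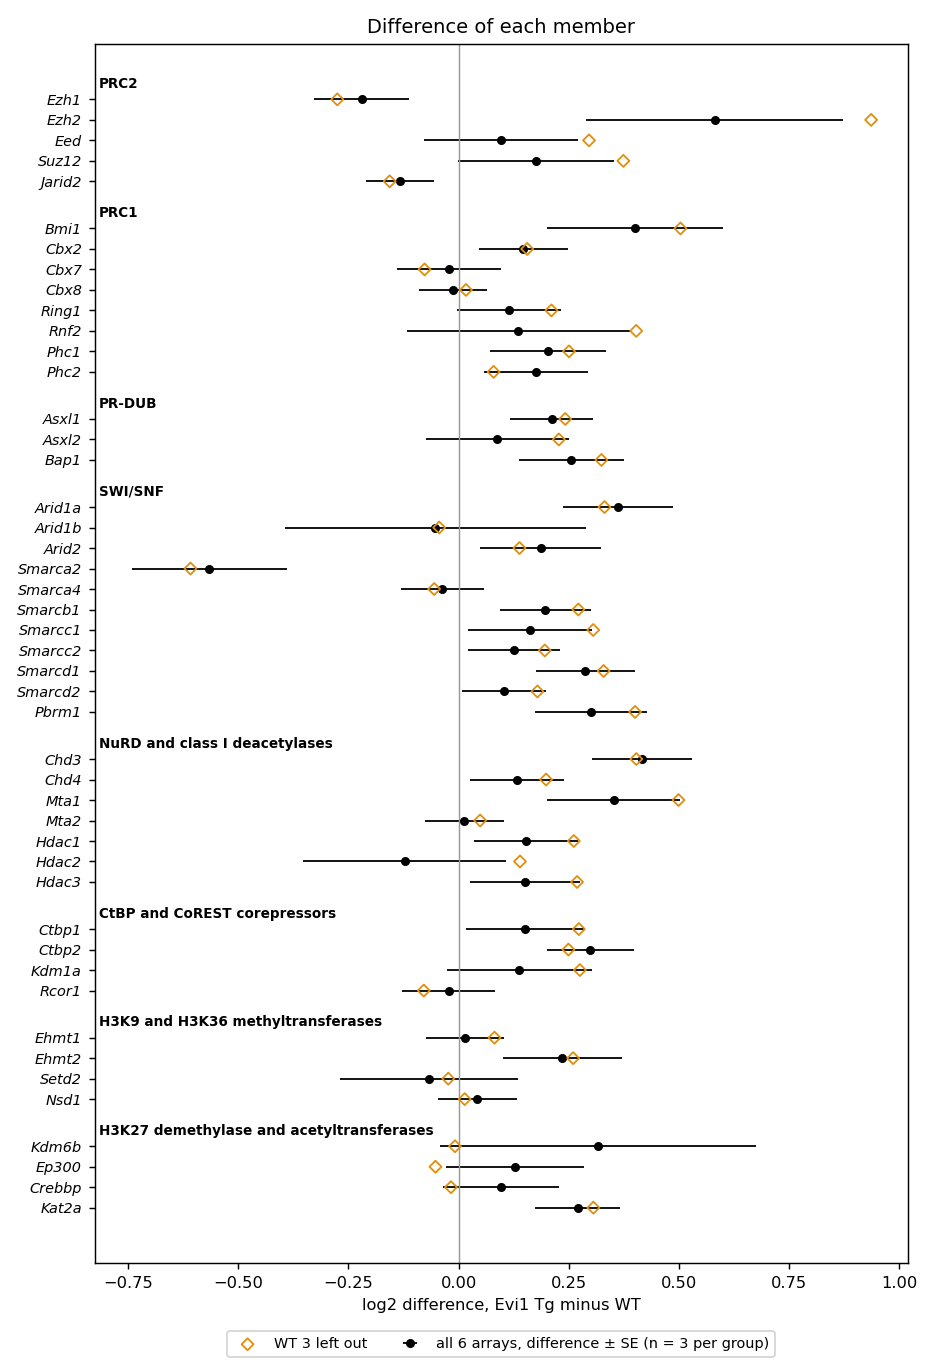
Log2 difference of Evi1 Tg minus WT for each of the 46 measured members, by complex. Black points with bars are the difference and its moderated standard error with all arrays (n = 3 per group), and open diamonds are the difference with WT 3 left out. Smarca2 is farthest to the left at -0.57, and Ezh2 is farthest to the right at 0.58 with all arrays and 0.94 without WT 3.

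Within PRC2, the catalytic subunits Ezh2 and Ezh1 had differences of opposite sign, and neither passed the test. Ezh2 is the methyltransferase of dividing cells. It read 724, 861 and 803 in Evi1 Tg 1, 2 and 3, against 468, 368 and 867 in WT 1, 2 and 3. WT 1 and WT 2 lay far below every Evi1 Tg array, but WT 3 lay above them all. The means were 796 ± 69.0 in Evi1 Tg and 568 ± 264 in WT (SD, n = 3 each), differing by 0.58 on the log2 scale (SE 0.292, limma adjusted p = 0.567). Without WT 3 the difference was 0.94 (SE 0.135, limma adjusted p = 0.0302), and Ezh2 was then the 1 member of 46 to pass (2.17%), in a comparison that called 383 genes higher (1.73%, and 4.04% of genes above background). Without WT 2 the difference was 0.32 (limma adjusted p = 0.808).

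Ezh1, the paralogue of Ezh2 that is more prominent in cells at rest, read 442, 412 and 479 in Evi1 Tg 1, 2 and 3, against 496, 581 and 478 in WT 1, 2 and 3. The groups touched through Evi1 Tg 3 and WT 3, and the log2 difference was -0.22 (SE 0.108, limma adjusted p = 0.554). Jarid2, which guides PRC2 to its targets, read 341, 353 and 328 in Evi1 Tg, against 384, 375 and 361 in WT. All Evi1 Tg arrays lay below all WT arrays, though by only -0.13 on the log2 scale (SE 0.0771, limma adjusted p = 0.639).

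In the core scaffold of PRC2, as in Ezh2, WT 3 was the highest WT array. Suz12, needed for PRC2 stability, read 1122, 1164 and 1125 in Evi1 Tg, against 968, 795 and 1327 in WT. Eed, which binds the methyl mark and stimulates the enzyme, read 398, 449 and 386 in Evi1 Tg, against 331, 338 and 506 in WT. In both genes WT 3 was the highest of the 6 arrays and WT 1 and WT 2 the lowest. The log2 differences were 0.17 for Suz12 (SE 0.177) and 0.10 for Eed (SE 0.174), and neither passed. Without WT 3 they were 0.37 (limma adjusted p = 0.151) and 0.30 (0.205), without WT 2 they were 0.00 for both, and without WT 1 they were 0.15 and -0.01.

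The same arrangement, with WT 1 and WT 2 below every Evi1 Tg array and WT 3 not, was found in 16 of 46 members (34.8%), against 10.6% of all genes and 20.4% of genes above background. This arrangement was chosen after the values were seen. WT 3 lay above all Evi1 Tg arrays in 14 of 46 members (30.4%), against 27.7% of all genes and 43.2% of genes above background. The 16 were Ezh2, Eed, Suz12, Bmi1, Ring1, Rnf2, Smarcc1, Smarcc2, Smarcd2, Pbrm1, Chd4, Mta1, Hdac1, Hdac3, Ctbp1 and Ehmt1. Among these, WT 3 exceeded all Evi1 Tg arrays in Ezh2, Eed, Suz12, Rnf2, Smarcd2, Hdac3, Ctbp1 and Ehmt1. In the genes of mitosis too WT 1 and WT 2 were lowest. Their median deviation from the mean over the 6 arrays, on the log2 scale, was 0.25, 0.25 and 0.42 in Evi1 Tg 1, 2 and 3, against -0.49, -0.67 and 0.28 in WT 1, 2 and 3. For genes of DNA replication it was 0.16, 0.38 and 0.33 in Evi1 Tg, against -0.68, -0.57 and 0.36 in WT. For the 5 PRC2 members it was 0.01, 0.12 and 0.00 in Evi1 Tg, against -0.14, -0.23 and 0.31 in WT. All 21 of 21 measured genes of mitosis were above background, with summed intensities of 17700 to 19248 in Evi1 Tg and 9394 to 18180 in WT, and the part of cell division in the values of the members was not tested. In sorted bulk cells, fewer cells of a kind and less RNA per cell cannot be told apart.

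**Figure D2:**
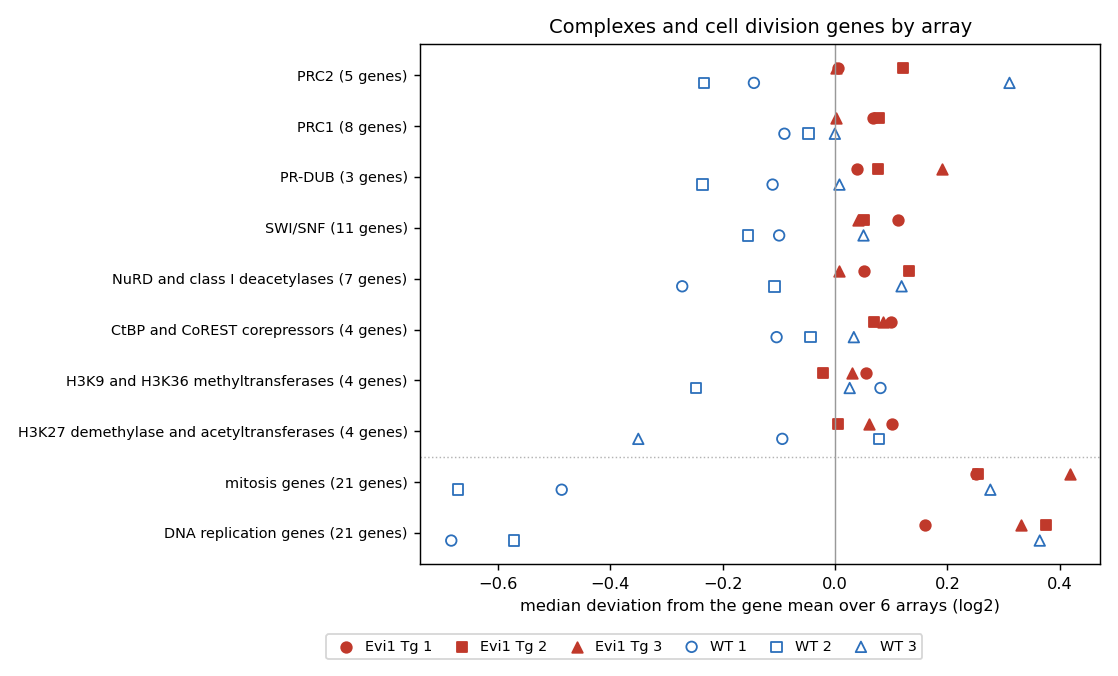
Median deviation of the members of each complex from the gene mean over the 6 arrays, on the log2 scale, with the genes of mitosis and DNA replication below the dotted line. Filled red symbols are Evi1 Tg arrays and open blue symbols WT arrays. WT 3 stands with the Evi1 Tg arrays for cell division genes (0.28 and 0.36), above them for PRC2 (0.31) and far below them for the H3K27 demethylase and acetyltransferases (-0.35).

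E2F factors drive many genes of the S phase, Ezh2 and Eed among them, so the promoter windows of the members were searched for the E2F motifs TTTCCCGC, TTTGGCGC, TTTCGCGC and TTTGCCGC on both strands. Matches of different motifs can share bases, and a window with several was counted once. The windows, from RefSeq on GRCm38.p6, run from 250 bases before to 50 bases after a gene's start, and 40 of 47 members had at least 1. A motif was present in 6 of 48 member windows (12.5%), against 2.26% of 32851 windows of all genes. Eed was not among the genes with a match. Member windows were richer in CpG, and among windows with at least 20 CpG the shares were 13.5% of member windows (5 of 37) and 5.15% of all windows. The 6 matches are shown because they include the PRC2 genes Ezh2 and Suz12 and, by contrast, Arid1a, Smarcd1 and Kat2a, in which WT 3 lay below all Evi1 Tg arrays. Capitals mark the motif as it reads on the gene's own strand, 5′ to 3′.
Ezh2, chr6:47595009-47595038, minus strand: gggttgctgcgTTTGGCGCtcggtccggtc
Suz12, chr11:79992876-79992905, plus strand: cgacccctcatTTTCCCGCgaattcagttc
Arid1a, chr4:133754022-133754051, minus strand: tccctccctccTTTCCCGCcccctccccct
Smarcd1, chr15:99702145-99702174, plus strand: gtcagcacgccTTTCCCGCtagtcgccccc
Kat2a, chr11:100712508-100712537, minus strand: aaggatgggaaGCGGCAAAggaagactacg
Suv39h1, chrX:8074407-8074436, minus strand: ggaaggccggcGCGGCAAAcgtgggggccg
The Ezh2 match begins at base 4 of the transcript, the others 55 (Arid1a), 59 (Kat2a), 64 (Suv39h1), 131 (Smarcd1) and 219 bases (Suz12) before the start. A match describes letters in a window and is not a measured binding site.

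None of the PRC1 members passed the test. Bmi1, the subunit that activates the ubiquitin ligase and sustains stem cell renewal, read 94.4, 106 and 156 in Evi1 Tg 1, 2 and 3, against 77.3, 86.5 and 101 in WT. The log2 difference was 0.40 (SE 0.200, limma adjusted p = 0.566), with Evi1 Tg 3 far above the others and WT 3 inside the Evi1 Tg range. Phc1, a chromatin-compacting subunit, read 104, 94.3 and 78.3 in Evi1 Tg, against 84.0, 70.4 and 84.8 in WT, with overlapping groups (log2 difference 0.20, SE 0.132). Rnf2, the ligase itself, read 334, 312 and 466 in Evi1 Tg, against 271, 281 and 482 in WT. Array 3 was the brightest of each group, and the log2 difference of 0.14 (SE 0.253) was smaller than the spread within groups. Its paralogue Ring1 read 91.9, 107 and 99.6 in Evi1 Tg, against 81.0, 90.7 and 105 in WT (log2 difference 0.11). The chromodomain subunit Cbx2 and the polyhomeotic paralogue Phc2 had log2 differences of 0.15 and 0.18, with overlapping groups. Cbx8 was below background on all 6 arrays (47.6 to 51.5), and Cbx7 straddled it with differences of -0.01 and -0.02, so neither level can be read closely. Bmi1 in WT 1 (77.3), Ring1 in WT 1 (81.0) and Phc1 in Evi1 Tg 3 (78.3) and WT 2 (70.4) were also below background. The differences of these 3 genes share that limit.

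The polycomb deubiquitinase, which removes the PRC1 mark from H2A, had its enzyme Bap1 and its cofactor Asxl1 slightly above WT. Bap1 read 287, 261 and 292 in Evi1 Tg, against 200, 249 and 257 in WT. Asxl1, a gene often mutated in human myeloid leukaemia, read 293, 300 and 327 in Evi1 Tg, against 278, 242 and 276 in WT. The groups did not overlap in either gene, but the differences of 0.26 (SE 0.118, limma adjusted p = 0.528) and 0.21 (SE 0.0940, limma adjusted p = 0.510) did not pass. Asxl2 overlapped, with 455, 619 and 534 in Evi1 Tg, against 478, 432 and 608 in WT.

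SWI/SNF held the member with the largest difference below 0, Smarca2, one of the alternative ATPases of the complex. Smarca2 read 299, 197 and 309 in Evi1 Tg 1, 2 and 3, against 412, 391 and 368 in WT 1, 2 and 3. Every Evi1 Tg array lay below every WT array, and Evi1 Tg 2 lay lowest. The means were 269 ± 61.8 in Evi1 Tg and 390 ± 22.2 in WT (SD, n = 3 each), and the difference was -0.57 on the log2 scale (SE 0.176, limma adjusted p = 0.325). The difference was -0.36 without Evi1 Tg 2 and -0.61 without WT 3. The other ATPase, Smarca4, read 1032, 951 and 856 in Evi1 Tg, against 988, 974 and 943 in WT, with overlapping groups (log2 difference -0.04, SE 0.0935).

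Several SWI/SNF accessory subunits lay above WT. Arid1a, the DNA-binding subunit of the BAF form, read 1532, 1559 and 1336 in Evi1 Tg, against 1339, 1023 and 1096 in WT. The groups met at Evi1 Tg 3 and WT 1, and the log2 difference was 0.36 (SE 0.125, limma adjusted p = 0.376). Smarcd1, which links the complex to transcription factors, read 224, 241 and 258 in Evi1 Tg, against 172, 213 and 209 in WT (log2 difference 0.29, SE 0.111, limma adjusted p = 0.438). Those groups did not overlap, but a dimmer Smarcd1 probe set overlapped fully, with 161, 190 and 158 in Evi1 Tg and 193, 110 and 156 in WT (exact two-sided permutation p = 0.6). Pbrm1, a bromodomain subunit of the PBAF form, read 808, 695 and 806 in Evi1 Tg, against 628, 539 and 717 in WT (log2 difference 0.30, SE 0.126, limma adjusted p = 0.485). Only WT 3 reached into the Evi1 Tg range. The core subunit Smarcb1 read 632, 627 and 625 in Evi1 Tg, against 481, 562 and 607 in WT, without overlap, a log2 difference of 0.20. Arid1b, the paralogue of Arid1a, varied more within groups than between them, with 1456, 1333 and 840 in Evi1 Tg, against 1893, 778 and 1235 in WT. The scaffold subunit Smarcc1 read 737, 844 and 717 in Evi1 Tg, against 612, 624 and 833 in WT. Its paralogue Smarcc2 read 890, 791 and 837 in Evi1 Tg, against 686, 782 and 846 in WT, and in both WT 3 reached into the Evi1 Tg range. Smarcc1, Smarcc2, Arid2 and Smarcd2 had log2 differences of 0.10 to 0.19 and overlapping groups, and that of Arid1b was -0.05.

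Among NuRD members and class I deacetylases, Chd3 had the smallest p of all members. Chd3 is a nucleosome-remodelling ATPase of NuRD. It read 191, 201 and 160 in Evi1 Tg, against 129, 149 and 135 in WT. All Evi1 Tg arrays lay above all WT arrays, with means of 184 ± 21.7 in Evi1 Tg and 137 ± 10.3 in WT (SD, n = 3 each), 0.42 apart on the log2 scale (SE 0.114, limma adjusted p = 0.267). Its dimmer probe set was below background on all 3 WT arrays and on Evi1 Tg 3, so it gives no readable difference. Mta1, which tethers the deacetylases to NuRD, read 505, 566 and 449 in Evi1 Tg, against 359, 355 and 485 in WT (log2 difference 0.35, SE 0.151). WT 1 and WT 2 lay well below Evi1 Tg, and WT 3 lay within its range.

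In the deacetylases themselves the groups overlapped, with WT 3 the brightest WT array in each. Hdac1 read 2148, 2181 and 2344 in Evi1 Tg, against 1746, 1969 and 2326 in WT (log2 difference 0.15, SE 0.119). Hdac2 read 429, 423 and 435 in Evi1 Tg, against 453, 335 and 672 in WT (log2 difference -0.12, SE 0.230). The Evi1 Tg arrays were close together in Hdac2, while the WT arrays differed by 1.00 on the log2 scale. Hdac3, the enzyme of the NCoR complexes, read 627, 676 and 611 in Evi1 Tg, against 498, 561 and 676 in WT (log2 difference 0.15). The ATPase Chd4 read 938, 918 and 785 in Evi1 Tg, against 749, 781 and 878 in WT (0.13). In Chd4 too, WT 1 and WT 2 were the lowest arrays and WT 3 was not. Mta2, the paralogue of Mta1, had a log2 difference of 0.01.

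CtBP proteins, the corepressors that EVI1 recruits through short peptide motifs, were both above background. Ctbp2 read 232, 221 and 256 in Evi1 Tg, against 188, 210 and 179 in WT. The groups did not overlap, and the log2 difference was 0.30 (SE 0.0994, limma adjusted p = 0.361), which did not pass, and 0.25 without WT 3. Ctbp1 read 616, 685 and 675 in Evi1 Tg, against 498, 595 and 702 in WT, where WT 3 was the highest array (log2 difference 0.15, SE 0.134). Kdm1a, the lysine demethylase of CoREST, read 458, 413 and 363 in Evi1 Tg, against 383, 299 and 451 in WT. Its scaffold Rcor1 had a log2 difference of -0.02 (SE 0.105). Both overlapped between groups.

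The methyltransferases of H3K9 and H3K36 showed no separation of the groups in any of the 4 measured genes. Ehmt2, also called G9a, read 404, 407 and 376 in Evi1 Tg, against 393, 277 and 347 in WT (log2 difference 0.24, SE 0.134, limma adjusted p = 0.628). WT 2 was the lowest array, and WT 1 fell within the Evi1 Tg range. Its partner Ehmt1 had a log2 difference of 0.01. Nsd1, which dimethylates H3K36, read 935, 811 and 879 in Evi1 Tg, against 893, 838 and 815 in WT (log2 difference 0.04, SE 0.0890). Setd2, which trimethylates H3K36, was spread over 715 to 1280 in WT and 890 to 983 in Evi1 Tg.

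Among the acetyltransferases and the H3K27 demethylase, WT 3 was the lowest array in Kdm6b, Crebbp and Ep300 and the highest WT array in Kat2a. Kat2a, also called GCN5, read 546, 616 and 517 in Evi1 Tg, against 439, 465 and 486 in WT, without overlap (log2 difference 0.27, SE 0.0966, limma adjusted p = 0.395). Crebbp read 1435, 1185 and 1192 in Evi1 Tg, against 1245, 1318 and 1011 in WT (log2 difference 0.10, SE 0.132). Its paralogue Ep300 read 1333, 1334 and 1379 in Evi1 Tg, against 1465, 1335 and 961 in WT (0.13, SE 0.157). The groups overlapped in both. Kdm6b, which is induced by inflammatory signals in macrophages, read 352, 320 and 439 in Evi1 Tg, against 256, 533 and 188 in WT. Its WT range was the widest among the members on the log2 scale, and its difference of 0.32 (SE 0.358) was -0.01 without WT 3. A dimmer Kdm6b probe set was below background on every array, so it gives no readable difference. Without WT 3 the median of these 4 genes was -0.01, against 0.20 with all arrays.

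**Figure D3:**
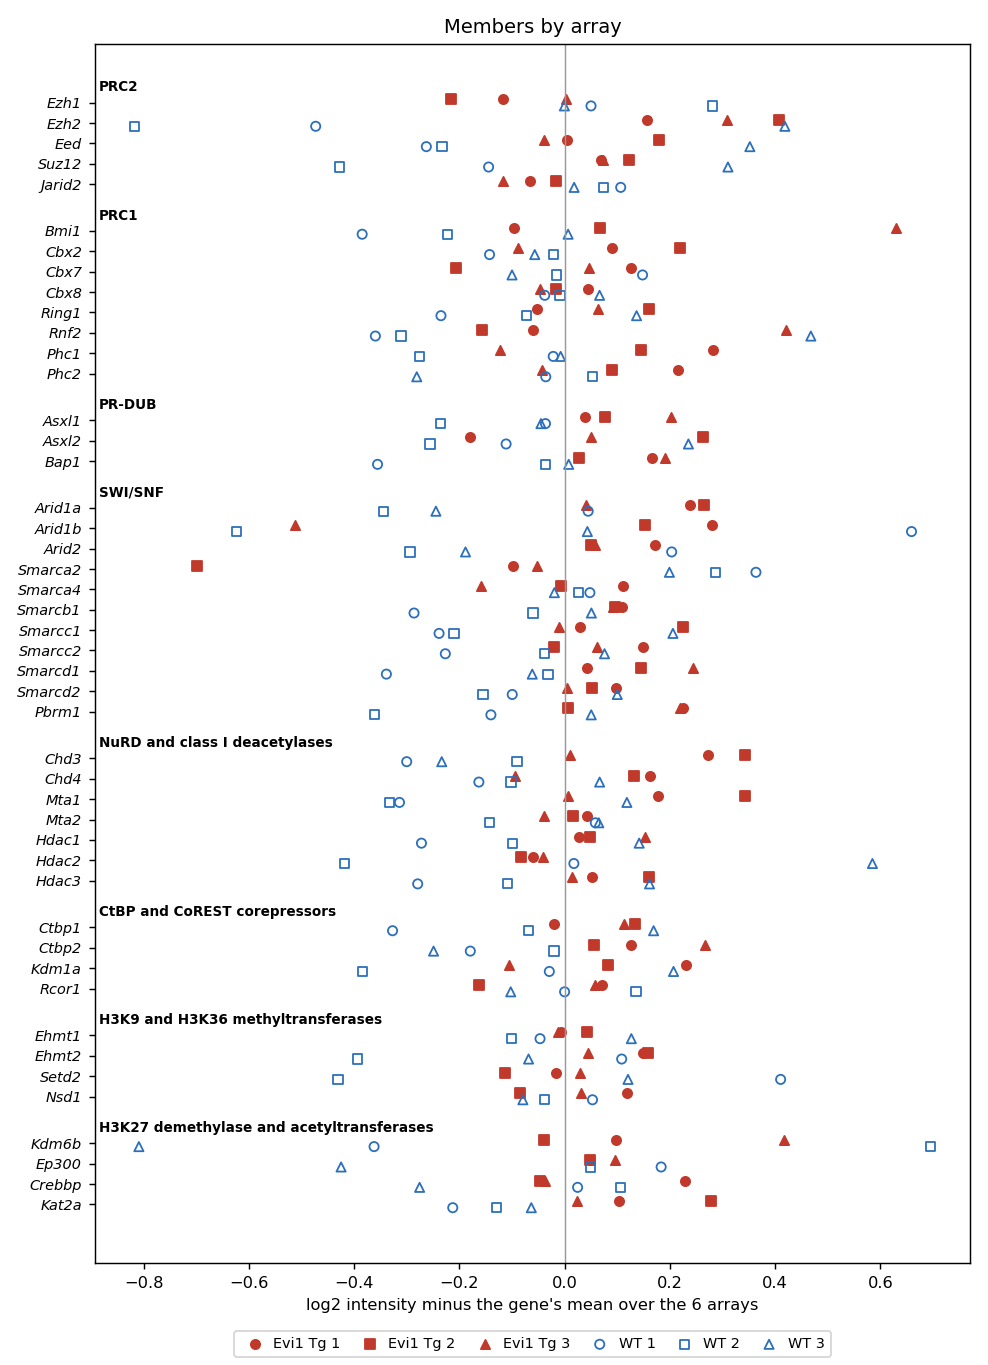
Log2 intensity of each member minus its mean over the 6 arrays, by complex. Filled red symbols are Evi1 Tg arrays and open blue symbols WT arrays, with a circle, square and triangle for replicates 1, 2 and 3. The WT triangle stands to the right in Ezh2, Eed, Suz12, Rnf2 and Hdac2 and to the left in Kdm6b, Ep300 and Crebbp, while Smarca2 and Chd3 keep the groups apart.

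The WT arrays were more spread than the Evi1 Tg arrays in 35 of 46 members (76.1%), against 58.2% of all genes and 67.6% of genes above background. The median range of a member was 0.22 in Evi1 Tg and 0.37 in WT on the log2 scale. The 9 measured genes listed here as reported EVI1 partners (Ctbp1, Ctbp2, Hdac1, Ehmt2, Smarca4, Crebbp, Ezh2, Eed and Suz12) had a median difference of 0.15. Of these, 8 lay above 0 (88.9%), against 53.5% of all genes and 50.5% of genes above background. The groups did not overlap for 1, Ctbp2 (11.1%), against 14.6% and 19.6%, and 0 passed the test. The sign of some depended on single arrays. Eed was -0.01 without WT 1, Crebbp -0.02 without WT 3 and Smarca4 0.03 without Evi1 Tg 3.

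The balance of paralogues was followed as the log2 signal of one minus that of the other within each array. Some pairs, such as Smarca4 and Smarca2, are alternatives within a complex, while others, such as Ehmt2 and Ehmt1, are partners. Signals of different probe sets are not on one scale, so only the change in a balance between groups can be read. The balance of Smarca4 over Smarca2 was 1.79, 2.27 and 1.47 in Evi1 Tg, against 1.26, 1.32 and 1.36 in WT. All Evi1 Tg arrays lay above all WT arrays, and the change was 0.53. That of Chd4 over Chd3 was 2.29, 2.19 and 2.30 in Evi1 Tg, against 2.54, 2.39 and 2.70 in WT, a change of -0.28 again without overlap. Each had an exact two-sided permutation p = 0.1, the smallest that 3 against 3 arrays allow, and an adjusted p = 0.643 over the 15 pairs compared. The largest change, 0.80 for Ezh2 over Ezh1, came from balances of 0.71, 1.06 and 0.74 in Evi1 Tg, against -0.08, -0.66 and 0.86 in WT. WT 3 lay inside the Evi1 Tg range there (exact two-sided permutation p = 0.3), and the change was 1.21 without WT 3 and 0.45 without WT 2. Of the 15 pairs, 2 had groups that did not overlap, and no share over pairs of other genes is given for comparison. With a smallest possible p of 0.1, no pair could reach the threshold for adjusted p. The adjusted values therefore cannot decide if any balance changed. The changes of Rnf2 over Ring1, Phc2 over Phc1, Smarcc1 over Smarcc2 and Ep300 over Crebbp lay between -0.03 and 0.04. That of Cbx8 over Cbx7 cannot be read, since Cbx8 was below background.

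**Figure D4:**
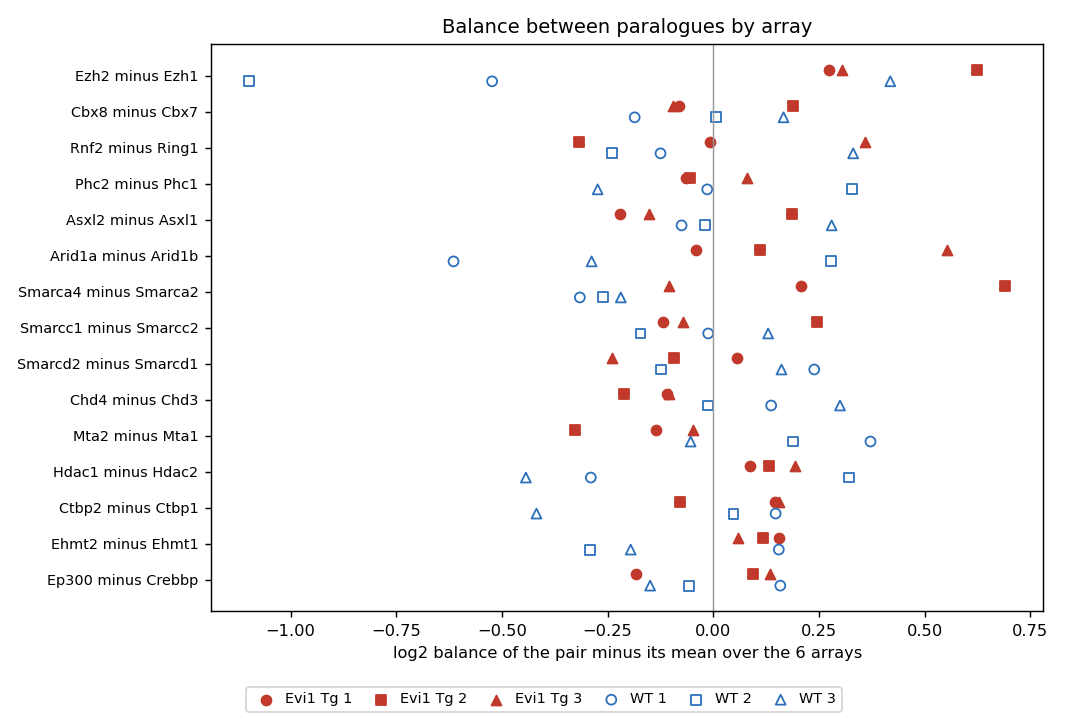
Balance of the 15 paralogue pairs, as the log2 signal of the first gene minus that of the second, centred on its mean over the 6 arrays. Filled red symbols are Evi1 Tg arrays and open blue symbols WT arrays, with a circle, square and triangle for replicates 1, 2 and 3. The groups stand apart for Smarca4 over Smarca2 and for Chd4 over Chd3 and overlap in the other 13 pairs.

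Other subunits of these complexes, related enzymes and partner proteins were measured for 89 of 102 genes, and 0 passed the test. Not all of the 89 belong to the complexes of the members. At an unadjusted p under 0.05 there were 15 higher and 4 lower (21.3%), against 10.3% of all genes and 18.2% of genes above background. The median difference was 0.11, and 64 lay above 0 (71.9%), against 53.5% and 50.5%. The groups did not overlap for 25 of 89 (28.1%), against 14.6% of all genes and 19.6% of genes above background. Epop, an accessory subunit of PRC2 that links it to elongin, read 159, 211 and 151 in Evi1 Tg, against 102, 83.3 and 103 in WT (log2 difference 0.84, SE 0.154, limma adjusted p = 0.140). Rbbp4, the histone-binding subunit shared by PRC2 and NuRD, read 1187, 1254 and 1140 in Evi1 Tg, against 777, 776 and 1071 in WT (0.46, SE 0.140, limma adjusted p = 0.315). The groups did not overlap in either, and WT 3 was the WT array closest to Evi1 Tg in each. Trim28, the corepressor of zinc finger repressors, read 1112, 1291 and 1114 in Evi1 Tg, against 707, 744 and 973 in WT (0.55, SE 0.140). Sin3a, a deacetylase scaffold, read 690, 763 and 686 in Evi1 Tg, against 502, 527 and 629 in WT (0.37, SE 0.110). On the other side lay an acetyltransferase and a subunit of the SAGA complex. Kat6b read 95.8, 95.4 and 108 in Evi1 Tg, against 133, 159 and 143 in WT (-0.54, limma adjusted p = 0.145), and Supt3 read 155, 159 and 169 in Evi1 Tg, against 215, 195 and 221 in WT (-0.38, SE 0.0869). In each of these 4 genes too the groups did not overlap. Epop, Rbbp4 and these 4 were chosen for the smallest p of the 89, so separate groups were likely from that choice alone.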

How the data were processed

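Biotinylated cDNA of each sample was made with a GeneChip WT PLUS kit, per the protocols in the labels. The authors deposited 1 table of intensity values for 34351 probe sets on 6 arrays. The sources used here give no background correction, normalization, summarisation or genome build. The values were positive, from 17.8 to 14719, and on a linear scale as judged from them. Background signal compresses differences of dim genes, and any scaling of whole arrays removes a shift common to them all.

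Probe sets were named through the platform annotation, and 23521 had 1 symbol. The probe set with the highest mean was used for each of 22180 genes. Log2 values, without pseudocount or filter, of Evi1 Tg and WT (n = 3 each) were compared with limma 3.58.1 (lmFit, eBayes) under R 4.3.3. P-values were adjusted by Benjamini-Hochberg over the 22180 genes, and 0.05 was the threshold. SE is the moderated standard error of the log2 difference. The number of arrays limits the precision. On data simulated for this comparison over 22180 genes, the fit recovered 77% of the 2-fold and 99% of the 4-fold changes, with 11 false calls. The simulation gave both groups the same spread, with no array standing apart and no change under 2-fold. It therefore does not show how well differences as small as those of the members are recovered. Paralogue balances were tested by exact permutation over arrays. Figures were drawn with matplotlib 3.10.9.

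Members and lists were chosen with earlier results of these data known. Values in every array are given for members with separate groups and an unadjusted p under 0.05. They are also given for the 2 members of each complex with the smallest p and for reported EVI1 partners. Of the other subunits, related enzymes and partner proteins, the 6 with the smallest p are given. Values of other members were chosen after they were seen. Lists are described by counts and medians without a set test. The alternatives were 2 normalizations, a filter on dim genes, eBayes with trend and robust settings, no moderation, a replicate block, array weights, averaging of probe sets, a pseudocount of 16, leaving out each array, and averaging Evi1 Tg 1 and 2, the most similar arrays (r = 0.992).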

Additional observations from a re-analysis of the deposited data

How the results depend on the processing

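Over the 16 alternatives, the direction of the median difference of all members held in 16 (0.11 to 0.22), and members passing the test numbered 0 in 15 and 1 (Ezh2) without WT 3. Leaving out single arrays gave 0 to 383 genes called higher and 2 to 173 called lower over all genes, 0 to 1 members called and 4 to 16 members at an unadjusted p under 0.05, the highest counts without WT 3. It gave medians of 0.11 to 0.22 for all members, -0.011 to 0.30 for PRC2, 0.080 to 0.18 for PRC1, 0.097 to 0.20 for SWI/SNF, 0.055 to 0.26 for NuRD and class I deacetylases, 0.00084 to 0.10 for the H3K9 and H3K36 methyltransferases, 0.091 to 0.26 for CtBP and CoREST, and -0.013 to 0.23 for the H3K27 demethylase and acetyltransferases. The genes called higher and lower were 6 and 26 with dim genes left out, 6 and 32 with trend and robust settings, 0 and 0 without moderation, 32 and 82 with array weights, 0 and 9 with a pseudocount of 16, and 0 and 6 with Evi1 Tg 1 and 2 averaged, against 2 and 23. Against 7 members at an unadjusted p under 0.05, there were 4 with dim genes left out and 3 with trend and robust settings. There were 4 without moderation, 12 with array weights and 3 with Evi1 Tg 1 and 2 averaged. The shares over all genes are not given for these fits, so these counts are not a result about the members. With array weights the CtBP and CoREST median was 0.22. Same-numbered arrays correlated at 0.19, -0.18 and 0.06 in their deviations from the group mean, and arrays of different number at -0.23 to 0.12. These few values do not settle whether the arrays were paired, and the labels state no pairing. The replicate block gave 0 genes higher and 9 lower. Quantile normalization turned the balances of Cbx8 over Cbx7 (-0.0069) and Rnf2 over Ring1 (-0.0071). Leaving out single arrays turned differences near 0, with ranges of -0.011 to 0.30 for Eed, -0.017 to 0.17 for Crebbp, -0.0082 to 0.74 for Kdm6b, -0.0061 to 0.096 for Nsd1 and -0.10 to 0.033 for Smarca4. It likewise turned the balances of Cbx8 over Cbx7 (-0.084 to 0.094), Rnf2 over Ring1 (-0.15 to 0.19), Phc2 over Phc1 (-0.17 to 0.13), Smarcc1 over Smarcc2 (-0.077 to 0.11), Ctbp2 over Ctbp1 (-0.024 to 0.26) and Ep300 over Crebbp (-0.035 to 0.13). The place of WT 3 is given with the results, and the cause of these changes was not tested for any array.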
